A study of Mus musculus with 10 samples.

Results

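Igkv genes are the variable segments of the kappa light chain, the light chain that most mouse antibodies carry. All rows of the expression table whose GRCm38 mouse symbol starts with Igkv were taken, which gave 101 segments of the 14450 genes listed. They are 94 of the 100 segments that the GENCODE M21 annotation calls functional and 7 of its 60 kappa V pseudogenes, and they fall into 18 families, named by the number before the dash. The study sorted mature B cells by flow cytometry from bone marrow of Chat-GFP mice at steady state, with no treatment. In this reporter strain green fluorescence marks cells that use the locus of Chat, the choline acetyltransferase that makes acetylcholine. RNA from 5 sorts of Chat+ cells and 5 of Chat- cells was sequenced, so both groups carry the reporter and differ by its fluorescence. The labels give no age, do not describe the reporter construct, and do not say whether the libraries came from separate animals, which limits what any p-value here covers to differences among the sequenced libraries.

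A developing B cell joins 1 V segment to 1 of the kappa J segments with the Rag1 and Rag2 recombinase, and the joined exon is spliced to the constant exon Igkc. Each mature B cell thus mostly expresses the segment it rearranged, and the segment forms most of the light chain's antigen contact. In RNA from many sorted cells, the share of each segment reflects how many cells use it and how much light chain RNA each of them holds. Fewer cells and less RNA per cell cannot be told apart in such bulk samples. Plasma cells hold far more light chain RNA per cell than resting B cells do. Here a share is the percent of the summed Igkv CPM (counts per 1000000 counts) of a library that 1 segment or family holds.

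The depth estimated from the low values was 21530000 to 30060000 reads per library, of which 31457 to 62665 came from Igkv segments. At that depth a share of 1% has a 95% Wilson interval of 0.897% to 1.12% in the library with the fewest Igkv reads, for counting error only. The library Chat- replicate 4 stood apart: mitochondrial genes held 11.9% of its CPM against 2.27% to 3.85% elsewhere, and 1213 genes were listed at 0 against 62 to 682. Sequence shared between segments limits what each value means, since the quantifier splits reads that fit several transcripts. Of the 101 segments, 47 share over 50% of their 31-base words with transcripts of other genes, and these 47 held 53.7% to 57.5% of Igkv CPM. Another 20 share under 10%.

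Igkv1-110 and Igkv1-117 are both among the segments with the highest shares, and their coding sequences are shown because reads can be split between them. Igkv1-110 lies at chr6:68270485-68271267 and Igkv1-117 at chr6:68121046-68121827 (GRCm38, both on the plus strand, 2 exons each). Their 359 coding bases, from the GENCODE M21 transcripts, differ at 10 positions and are 97.2% identical. The last 300 coding bases are printed 5′ to 3′ and hold all 10 differences, in capitals. Most of their shared words are shared with each other: 63.6% of the words of Igkv1-110 occur in other genes, and 63.1% occur in Igkv1-117.
Igkv1-110: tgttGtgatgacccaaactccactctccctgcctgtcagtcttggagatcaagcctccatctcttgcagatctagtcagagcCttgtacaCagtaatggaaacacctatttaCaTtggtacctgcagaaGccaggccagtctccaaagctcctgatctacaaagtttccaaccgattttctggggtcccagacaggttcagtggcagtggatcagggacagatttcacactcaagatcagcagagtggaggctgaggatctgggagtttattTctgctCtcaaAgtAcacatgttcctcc
Igkv1-117: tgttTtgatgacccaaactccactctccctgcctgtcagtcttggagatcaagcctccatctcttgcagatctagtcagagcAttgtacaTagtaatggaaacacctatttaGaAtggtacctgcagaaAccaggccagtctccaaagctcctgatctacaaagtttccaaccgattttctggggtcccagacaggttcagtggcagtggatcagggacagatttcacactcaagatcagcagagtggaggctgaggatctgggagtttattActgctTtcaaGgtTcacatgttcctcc

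The last 90 coding bases are shown for the 6 segments whose share in 1 library most exceeded that in the others. They encode the end of framework 3 and the V-derived start of the third complementarity-determining region. Capitals mark bases that lie in at least 1 31-base word found in no other gene. Reads that hold such a whole word can be assigned to 1 segment. Igkv12-44 and Igkv8-24 are in capitals throughout, whereas Igkv4-70 and Igkv4-68 have no such base in this stretch, although 57 and 101 words elsewhere in their coding sequence are their own. All 6 lie on the minus strand of chromosome 6, and each has 2 exons.
Igkv4-70: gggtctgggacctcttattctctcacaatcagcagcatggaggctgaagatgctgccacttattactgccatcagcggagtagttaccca
Igkv4-74: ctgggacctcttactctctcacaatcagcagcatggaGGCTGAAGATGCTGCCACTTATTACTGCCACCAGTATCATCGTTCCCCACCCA
Igkv6-14: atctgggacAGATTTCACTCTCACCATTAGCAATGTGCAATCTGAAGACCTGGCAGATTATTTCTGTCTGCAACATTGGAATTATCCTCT
Igkv4-68: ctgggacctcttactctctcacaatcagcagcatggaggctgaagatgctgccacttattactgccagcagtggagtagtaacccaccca
Igkv12-44: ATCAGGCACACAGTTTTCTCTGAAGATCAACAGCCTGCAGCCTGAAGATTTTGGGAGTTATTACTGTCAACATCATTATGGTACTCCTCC
Igkv8-24: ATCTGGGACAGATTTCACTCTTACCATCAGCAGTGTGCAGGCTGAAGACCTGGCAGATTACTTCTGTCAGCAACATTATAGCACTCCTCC

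Their GRCm38 positions are chr6:69267888-69268443 for Igkv4-70, chr6:69184826-69185397 for Igkv4-74 and chr6:70434952-70435476 for Igkv6-14. Igkv4-68 lies at chr6:69304834-69305405, Igkv12-44 at chr6:69814631-69815154 and Igkv8-24 at chr6:70216858-70217421. The J segment Igkj1 and the constant exon Igkc follow downstream at chr6:70722562-70722599 and chr6:70726435-70726966, on the plus strand.

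The kappa repertoire was broad in both groups. The segments with the highest mean share over the 10 libraries were Igkv1-117 (5.06%), Igkv6-15 (4.78%), Igkv1-110 (4.24%), Igkv1-135 (3.56%) and Igkv10-96 (3.18%). They were followed by Igkv6-17 (2.66%), Igkv5-43 (2.65%), Igkv12-44 (2.51%), Igkv19-93 (2.51%) and Igkv3-4 (2.47%). Igkv19-93 is the one of these 10 that shares no 31-base word with another gene, and its shares ran from 2.10% to 3.20%. Longer transcripts collect more reads, and per length Igkv6-15 ranked first and Igkv1-117 second, at 5.10% and 4.64% of the length-scaled sum.

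The effective number of segments, the exponential of the Shannon entropy of the shares, was 58.4, 52.3, 59.3, 59.9 and 54.6 in Chat+ replicates 1 to 5. It was 60.7, 62.5, 61.4, 58.4 and 60.4 in the Chat- replicates. The means were 56.9 ± 3.30 and 60.7 ± 1.502 (SD, n = 5 each), and the groups overlapped, with Chat+ replicates 2 and 5 lowest. The 7 pseudogenes together held 0.643% ± 0.235 in Chat+ and 0.521% ± 0.189 in Chat-.

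**Figure D1:**
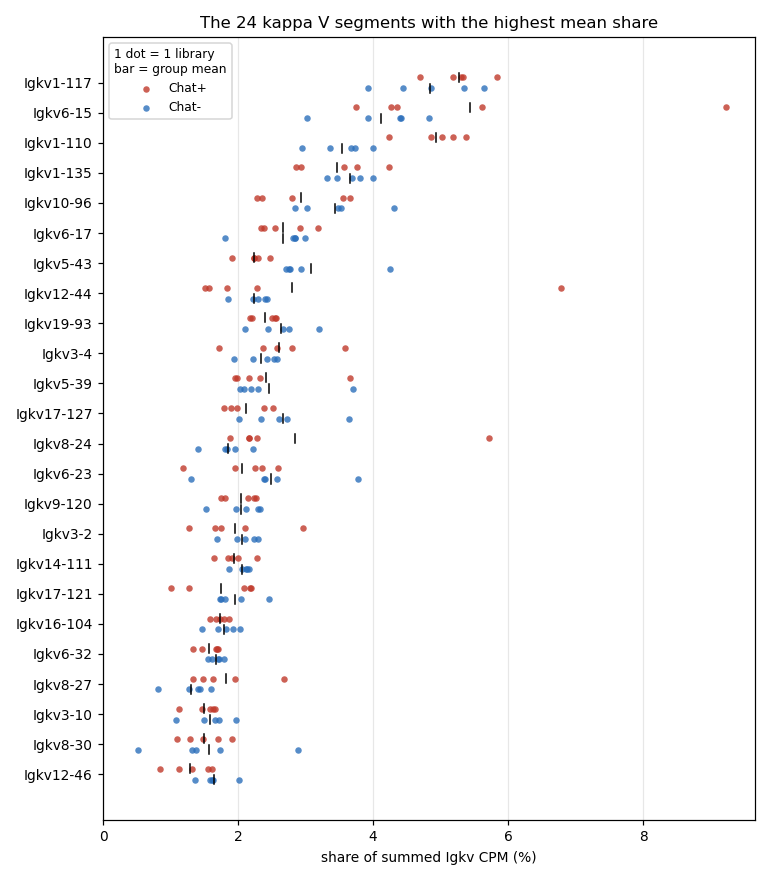
Share of summed Igkv CPM (percent, x axis) of the 24 segments with the highest mean share, with 1 dot per library (red Chat+, blue Chat-) and a black bar at each group's mean. The groups overlap for all 24 except Igkv1-110, higher in Chat+, and Igkv5-43, lower in Chat+; single red dots stand far to the right for Igkv6-15 (9.23%), Igkv12-44 (6.79%) and Igkv8-24 (5.72%).

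By family, Igkv6, Igkv1 and Igkv4 held the most. Igkv6 (9 segments) held 15.7% ± 1.87 in Chat+ and 15.2% ± 1.97 in Chat-, and Igkv1 (9 segments) held 14.8% ± 0.787 and 13.1% ± 0.792. Igkv4, the family with the most members (30), held 13.5% ± 1.47 and 14.3% ± 1.83. Igkv3 held 9.23% ± 0.395 and 9.85% ± 0.798, and Igkv8 held 10.2% ± 2.29 and 8.59% ± 2.30. Igkv5, Igkv12, Igkv17, Igkv10, Igkv9, Igkv14, Igkv2, Igkv19 and Igkv16 had means of 1.73% to 7.12% in either group, and Igkv15, Igkv11 and Igkv7 held at most 1.14% in any library. All of these 17 families overlapped between the groups.

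Family Igkv13, which has the members Igkv13-84 and Igkv13-85 in the table, was the exception. Its share was 1.21%, 1.03%, 1.41%, 1.53% and 1.24% in Chat+ and 1.71%, 1.94%, 1.58%, 2.54% and 1.62% in Chat-. Each Chat+ library lay below each Chat- library, at 1.29% ± 0.192 against 1.88% ± 0.395, but the highest Chat+ and lowest Chat- values were close. Neither member alone was apart: Igkv13-84 ranged over 0.198% to 0.994% against 0.754% to 1.12%, and Igkv13-85 over 0.535% to 1.21% against 0.796% to 1.41%. Both share about the same part of their words, 52.7%, with each other, so reads can move between them but less so out of their sum. In CPM the family overlapped, at 15.6 to 30.2 in Chat+ and 21.5 to 62.9 in Chat-. Relative to the Igkv total, 0.491% of all genes did not overlap, a figure not like for like with a family sum. The family was singled out after its values were seen.

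**Figure D2:**
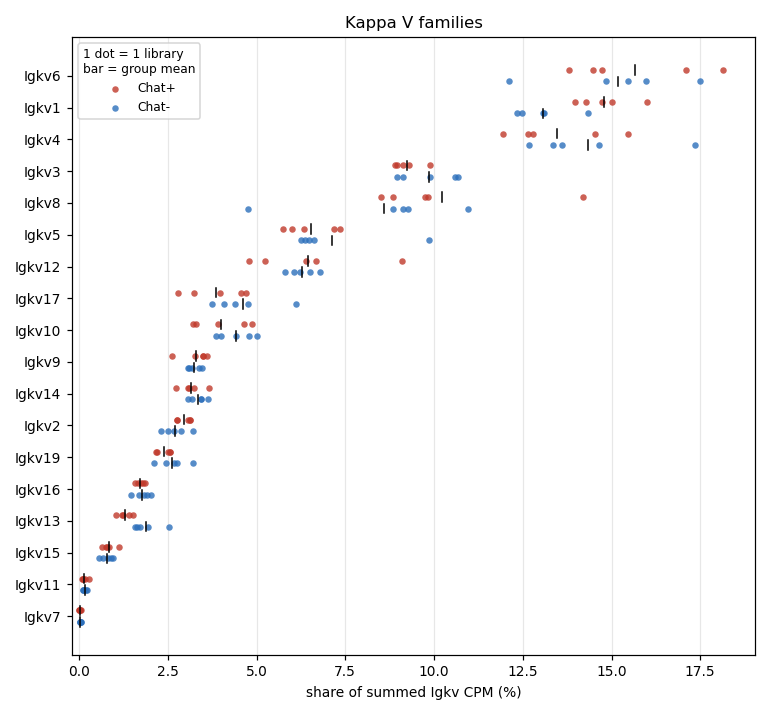
Share of summed Igkv CPM (percent, x axis) of the 18 kappa V families, with 1 dot per library (red Chat+, blue Chat-) and a black bar at each group's mean. Families Igkv6, Igkv1 and Igkv4 hold the most; the blue dot of Chat- replicate 4 stands at 4.75% in Igkv8 and 9.86% in Igkv5, and Igkv13 is the family whose groups do not overlap.

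The total of kappa V transcripts did not separate the groups. Summed Igkv CPM was 1285, 1685, 1696, 1321 and 2428 in Chat+ and 1281, 1478, 1358, 2476 and 1969 in Chat-. Both groups spanned about the same range, with means of 1683 ± 460 and 1713 ± 504 CPM (SD, n = 5 each). Igkc, the constant exon of the same transcripts, was at 4149 ± 723 and 3963 ± 493 CPM. The lambda V genes Iglv1, Iglv2 and Iglv3 made up 7.50% to 11.1% of all light chain V CPM in Chat+ and 7.72% to 10.99% in Chat-.

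Compared segment by segment, 0 of the 101 Igkv rows passed limma's test of Chat+ against Chat- at an adjusted p of 0.05, where 1 of all 14450 genes did (0.00692%). At an unadjusted p under 0.05 there were 9 segments (8.91%), 2 with a higher and 7 with a lower estimate in Chat+, against 4.51% of all genes. The count was 3 without Chat+ replicate 2, 5 without Chat- replicate 5, and 6 without Chat+ replicate 1 or 4 or Chat- replicate 1, 2 or 3. For all genes the split was the other way, with 3.49% higher and 1.01% lower. The estimate was higher in Chat+ for 37 segments (36.6%) and for 57% of all genes. The median log2 difference was -0.11 over the segments and 0.04 over all genes. The segments' median was 0.00 without Chat- replicate 4, -0.03 without Chat+ replicate 1 or Chat- replicate 5 and -0.04 without Chat+ replicate 4.

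The pseudogene Igkv12-40 had the smallest p and the largest difference, -2.60 ± 0.61 (log2 of CPM plus the offset, SE; limma adjusted p = 0.293). It was listed at 0, 0.185, 0, 0.132 and 0 CPM in Chat+ and at 0.486, 1.04, 0.747, 1.25 and 1.03 CPM in Chat-. No Chat+ library reached a Chat- library, and 3 of the Chat+ libraries were at 0. The size of its log2 difference depends on the offset. On the scale of log2(CPM + 1) it was -0.834, where Igkv13-84 was at -0.826. It was the one segment whose groups did not overlap in CPM, 0.990% of the 101 where 1.43% of all genes did not overlap and 0.304% lay below as it did.

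The pseudogene Igkv4-56 showed the largest estimate in the other direction, 2.10 ± 0.77 (SE; limma adjusted p = 0.974). It was at 0.949, 1.33, 1.17, 0.131 and 0.851 CPM in Chat+ and at 0.176, 0, 0.627, 0 and 0 CPM in Chat-, so the groups overlapped. On the scale of log2(CPM + 1) its difference was 0.686. The other lower estimates with small p were Igkv4-50 (-0.75), Igkv3-12 (-0.79), Igkv4-51 (-1.70), Igkv4-57 (-0.71), Igkv13-84 (-0.91) and Igkv4-69 (-0.81) on the log2 scale. Igkv12-40 and all 6 of these had their highest CPM in Chat- replicate 4. The next higher estimates were Igkv1-110 (0.46), Igkv2-107 (1.11), Igkv4-77 (0.60), Igkv8-27 (0.45) and Igkv1-122 (0.57). None passed, with limma adjusted p of 0.974 to 0.999 for these segments.

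Shares remove the library's total light chain level, and on that scale 3 segments did not overlap between the groups (2.97%). Of all genes expressed relative to the Igkv total, 0.491% did not overlap, 0.394% with Chat+ above and 0.0969% with Chat+ below. That total ran from 1281 to 2476 CPM, and dividing by it adds its variation to genes outside the set. The 2.97% and 0.491% are therefore not like for like. In CPM the percents were 0.990% of segments and 1.43% of all genes. Igkv1-110 held 5.18%, 4.23%, 5.02%, 4.86% and 5.38% of Igkv CPM in Chat+ and 3.68%, 3.996%, 3.36%, 2.95% and 3.72% in Chat-. Each Chat+ library was above each Chat- library, at 4.93% ± 0.435 against 3.54% ± 0.401 (SD, n = 5 each). In CPM the same segment was at 64.2 to 131 in Chat+ and 45.6 to 73.3 in Chat-, which overlap. Scaled to the Igkv total, its log2 difference was 0.48 ± 0.22 (SE). The limma p was 0.0416 unadjusted and 0.99998 adjusted over all genes, so it did not pass. That adjustment runs over genes outside the set, to which the scaling adds variation, so the adjusted p has the same limit as the percents.

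Because Igkv1-110 and Igkv1-117 can exchange reads, their shares were also summed, a choice made after the values were seen. Igkv1-117 alone overlapped, at 4.70% to 5.83% in Chat+ and 3.93% to 5.64% in Chat-. The sum was 10.49%, 10.06%, 10.35%, 10.05% and 10.07% in Chat+ and 9.32%, 7.93%, 8.21%, 8.30% and 8.16% in Chat-. The sum did not overlap either, at 10.2% ± 0.201 against 8.38% ± 0.541. Family Igkv1 without Igkv1-110 overlapped, at 9.86% ± 0.815 against 9.53% ± 0.956.

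Igkv5-43 went the other way. Its share was 1.91%, 2.23%, 2.47%, 2.24% and 2.30% in Chat+ and 2.76%, 2.74%, 2.93%, 4.25% and 2.70% in Chat-. Each Chat+ library was below each Chat- library, at 2.23% ± 0.202 against 3.08% ± 0.662, and Chat- replicate 4 was far above the rest of its group. Igkv5-43 shares 64.2% of its words with Igkv5-45, and the summed share of both ran from 2.25% to 2.95% in Chat+ and from 2.96% to 4.51% in Chat-. Igkv12-40, the third segment whose groups were apart, held at most 0.0110% in Chat+ and 0.0380% to 0.0704% in Chat-.

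**Figure D3:**
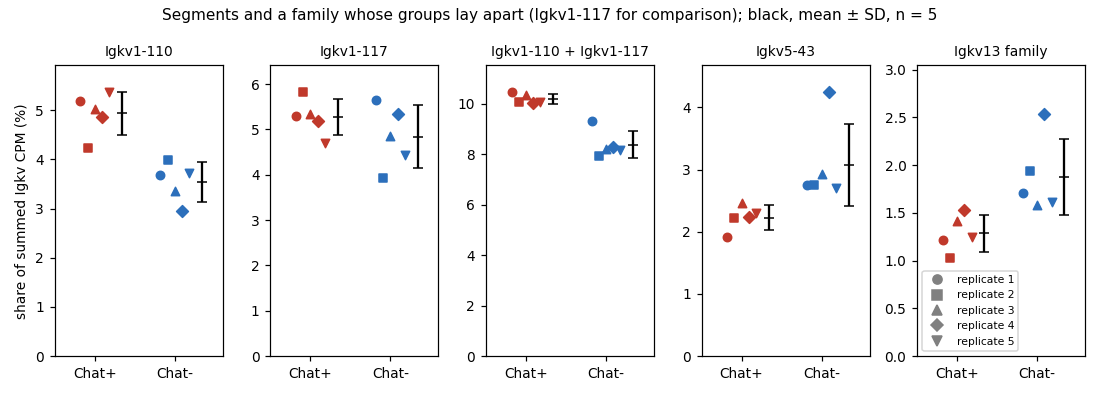
Share of summed Igkv CPM (percent, y axes from 0) by group for Igkv1-110, Igkv1-117, their sum, Igkv5-43 and family Igkv13, with 1 symbol per library and the mean ± SD (n = 5) in black. Chat+ lies above Chat- for Igkv1-110 and the sum with Igkv1-117, and below it for Igkv5-43 and family Igkv13; Igkv1-117 alone overlaps.

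Light chain segments with a known role in innate-like B-1 cells did not separate the groups. Igkv14-126 and Igkv4-91 form light chains of phosphatidylcholine-binding B-1 cells, and Igkv7-33 forms that of the T15 antibody to phosphorylcholine. Igkv14-126 held 0.509%, 0.385%, 0.244%, 0.445% and 0.480% in Chat+ and 0.640%, 0.436%, 0.423%, 0.178% and 0.415% in Chat-. Igkv4-91 held 0.462% to 1.03% in Chat+ and 0.581% to 0.977% in Chat-, and Igkv7-33 held 0% to 0.0455% and 0.0155% to 0.0670%. Both ranges overlapped. Exact two-sided permutation tests of the shares gave p = 0.984, 0.984 and 0.214 in that order, or 0.984, 0.984 and 0.643 adjusted over the 3 by Benjamini-Hochberg. Of 10 markers of B-1 cells, 9 were measured and 0 passed the adjusted limma test. This marker list was chosen with earlier results of these data known, so its counts are a description and not a test. All 9 had higher estimates in Chat+, where 57% of all genes did, with a median log2 difference of 0.82 against 0.04. At an unadjusted p under 0.05 there were 6 of the 9 and 4.51% of all genes, and Cd5, Spn and Itgam were not among them. Their summed level, of which Ahnak (619 ± 74.9 and 402 ± 33.4 CPM) made up the most, was 914 to 1272 CPM in Chat+ and 633 to 726 CPM in Chat-. Their part in the shares above was not tested.

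In several segments 1 library stood far above the other 9. Among the 63 segments with a mean of at least 5 CPM, 14 (22.2%) had a library with at least 2 times the median share of the other 9. On the CPM scale 36 of the 63 segments (57.1%) had such a library, against 6.61% of all 10147 genes with that mean level. It was Chat- replicate 4 for 22 segments and Chat+ replicate 5 for 13. Both libraries have the highest summed Igkv CPM (2476 and 2428), so the CPM cases also carry the library's total. Shares remove that total, and for shares no all-gene figure was made. Since 1 segment had 2 such libraries, there were 15 cases in shares, 11 in Chat+ libraries and 4 in Chat- libraries. Chat+ replicates 1 to 5 had 1, 4, 0, 3 and 3 cases, and Chat- replicates 1 to 5 had 0, 1, 0, 1 and 2. The limit of 2 times was set after the values were seen. At 1.5 times there were 25 cases in Chat+ and 19 in Chat-, and at 3 times 4 and 1.

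The highest ratio was that of Igkv4-70 in Chat+ replicate 2. Its shares were 0.280%, 2.19%, 0.603%, 0.811% and 0.280% in Chat+ and 0.307%, 0.565%, 0.368%, 0.225% and 0.488% in Chat-. The 2.19% rest on about 1072 reads, with a Wilson interval of 2.06% to 2.32%, and are 5.96 times the median of the other 9. Igkv4-70 shares 79.1% of its words with other genes, so not all of its reads can be told from those of related segments.

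Igkv4-74 was at 1.76% in Chat+ replicate 5, 5.05 times the median, and at 0.179% to 0.593% in the other 9 libraries. Igkv6-14 was at 1.74% in Chat- replicate 5, also 5.05 times the median, and at 0.198% to 0.621% elsewhere. Igkv4-68 was at 2.75% in Chat+ replicate 1 and at 0.508% to 0.949% elsewhere. The next highest library was Chat- replicate 2 for Igkv4-74 and Chat+ replicate 5 for Igkv6-14, so for both segments the highest 2 libraries came from different groups.

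The largest amounts came from well-represented segments. Igkv12-44 held 1.56%, 6.79%, 1.51%, 2.28% and 1.83% in Chat+ and 2.39%, 2.43%, 2.22%, 1.85% and 2.29% in Chat-. Its level in Chat+ replicate 2 was 114 CPM, from about 3322 reads. Igkv8-24, of which 11.3% of the words are shared, held 5.72% in Chat+ replicate 5 and 1.399% to 2.28% elsewhere. Most reads of Igkv8-24 can thus be assigned to it alone.

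Further cases, named after their values were seen, were Igkv6-20 (3.34% in Chat+ replicate 4, against 0.881% to 1.26%) and Igkv12-41 (3.07% in Chat+ replicate 5, against 0.730% to 1.65%). Igkv6-15 held 9.23% in Chat+ replicate 2, against 3.02% to 5.61%, and so was the highest single share of any segment in any library. Chat+ replicate 2 thus carried 4 such segments (Igkv4-70, Igkv12-44, Igkv5-45 and Igkv6-15), which together held 18.9% of its Igkv CPM. Such segments held 10.5% in Chat+ replicate 5, 4.86% in Chat+ replicate 4, 4.63% in Chat- replicate 5, 2.75% in Chat+ replicate 1, 2.28% in Chat- replicate 4 and 1.22% in Chat- replicate 2. The other 3 libraries had none.

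Jchain, which encodes the joining chain that plasma cells put into secreted antibody, differed between the same libraries. It was at 62.7, 160, 15.1, 33.6 and 213 CPM in Chat+ and at 22.2, 26.1, 10.1, 19.4 and 35.8 CPM in Chat-. Chat+ replicates 2 and 5, the highest in Jchain, had 4 and 3 cases, and Chat+ replicate 3, the lowest of its group, had 0. The other libraries did not follow the same order: Chat+ replicate 1, next after these in Jchain, had 1 case, while Chat+ replicate 4 had 3 and Chat- replicate 5 had 2 at lower levels. The 14 measured of 15 plasma cell markers summed to 1217 to 1495 CPM in Chat+ and 999 to 1236 CPM in Chat-, and 0 passed the adjusted limma test. Estimates were higher in Chat+ for 11 of the 14, where 57% of all genes were higher, with a median log2 difference of 0.14. At an unadjusted p under 0.05 there were 3, Jchain, Mzb1 and Derl3, where 4.51% of all genes were. The log2 differences of Sdc1 (-0.05), Prdm1 (0.10), Xbp1 (-0.01), Irf4 (-0.02) and Slamf7 (0.005) were small. Chat+ replicates 2 and 5 had the highest sums, 1495 and 1442 CPM, against at most 1337 CPM elsewhere. Mzb1 was at 204 and 201 CPM in these libraries, against 68.6 to 171 CPM in Chat-. Xbp1 was at 84.6 and 85.7 CPM in them, against 68.5 to 82.0 CPM in Chat-. Sdc1 and Prdm1 lay within the Chat- range. In Chat+ replicates 2 and 5, Sdc1 was at 12.5 and 10.9 CPM, against 9.34 to 15.3 CPM in Chat-. Prdm1 was at 1.86 and 2.48 CPM there, against 1.51 to 4.41 CPM in Chat-. This list too was chosen with earlier results of these data known. The part of plasma cell transcripts in the single-library shares was not tested.

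**Figure D4:**
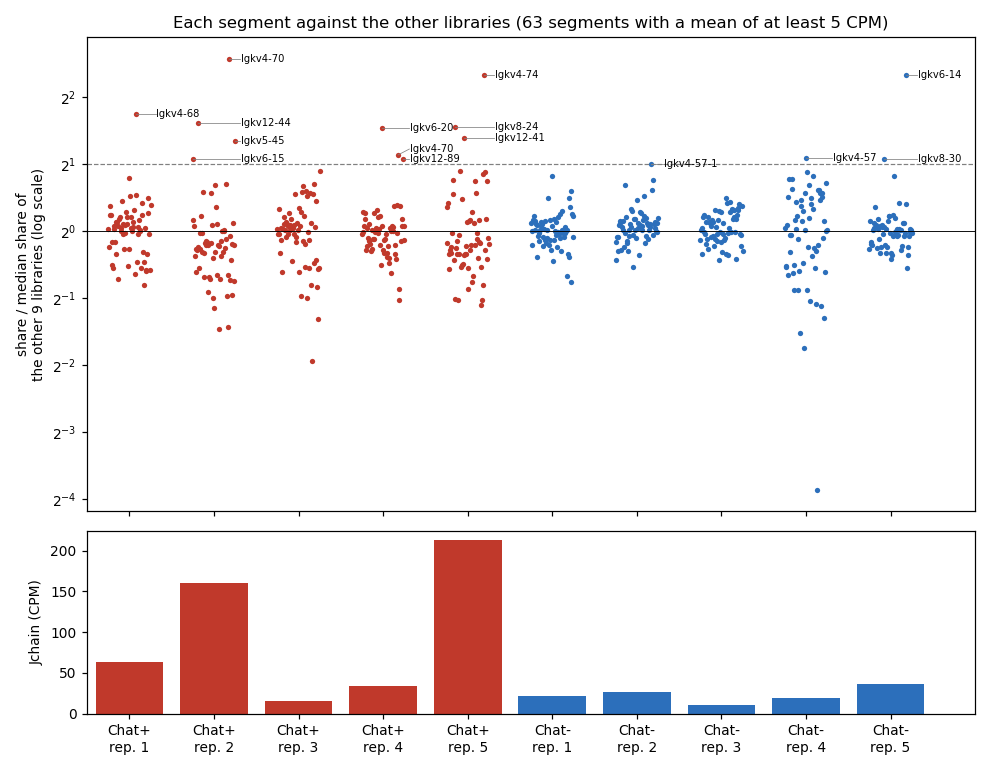
Top: the share of each of 63 segments in a library divided by its median share in the other 9 (log scale, 1 dot per segment, dashed line at 2 times); bottom: Jchain level of the same library (CPM, bars from 0). Chat+ replicates 2 and 5 have the highest Jchain bars (160 and 213 CPM) and 4 and 3 dots above the line, Chat+ replicate 4 has 3 dots at a lower bar (33.6 CPM), and the dots of Chat- replicate 4 spread furthest downward.

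Among segments far below the rest, 7 of 17 cases at under 0.5 times the median of the other 9 were in Chat- replicate 4. Igkv8-28 was at 0.0567% there and at 0.562% to 1.05% in the other 9 libraries. Igkv8-21 was at 0.456%, against 1.08% to 1.76%, and Igkv8-30 at 0.516%, against 1.09% to 2.89%. Family Igkv8 as a whole held 4.75% in this library and 8.52% to 14.2% in the rest. This is the library with the high mitochondrial share given above, whose part in these low values was not tested.

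The repertoires of 2 libraries were compared by the percent of Igkv CPM that would have to change segment to make them alike. Between pairs of Chat+ libraries the median was 18.3% (11.2% to 21.4%, 10 pairs), and between pairs of Chat- libraries 9.35% (6.61% to 19.5%, 10 pairs). Between a Chat+ and a Chat- library it was 16.1% (9.58% to 27.4%, 25 pairs). Single libraries set much of this. Without Chat- replicate 4 the Chat- pairs ranged over 6.61% to 9.62% (6 pairs). The median between the groups was then 12.2% (9.58% to 19.1%, 20 pairs). The 3 Chat+ pairs without Chat+ replicates 2 and 5 were at 11.2%, 11.2% and 12.04%. Pairs share libraries, so these ranges are a description. With the 14 segments that had a single-library high left out of the sum, the medians were 12.6% for Chat+ pairs, 8.67% for Chat- pairs and 12.1% between the groups. Chat+ pairs then ranged over 8.38% to 15.1% and Chat- pairs over 6.69% to 17.8%, or to 8.73% without Chat- replicate 4, and the ranges overlapped either way.

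The same removal left the segments named above apart. Igkv1-110 then held 5.75% to 7.12% in Chat+ and 3.47% to 4.87% in Chat-, and Igkv5-43 held 2.32% to 3.04% and 3.34% to 5.01%. The sum of Igkv1-110 and Igkv1-117 was 12.3% to 13.7% and 9.65% to 11.3%. The segments left out were picked from these same shares, and 11 of their 15 highs were in Chat+ libraries. Leaving them out raises the remaining shares more in Chat+. For Igkv1-110 and the sum, staying apart is therefore no independent check.

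Position in the locus did not separate the groups. The segments lie 18.4 kb (Igkv3-1) to 3166.3 kb (Igkv2-137) upstream of Igkj1. Those within 1000 kb (37 segments) held 47.3% ± 4.23 in Chat+ and 46.2% ± 3.22 in Chat-. Those at 1000 to 2000 kb (35 segments) held 17.8% ± 1.61 and 19.5% ± 1.995, and those beyond 2000 kb (29 segments) held 34.9% ± 2.79 and 34.3% ± 1.72. All 3 classes overlapped, and the middle of the locus held the least in both groups.

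Segments on the strand of Igkj1 join by deleting the DNA between, and those on the opposite strand join by inverting it. The 37 segments of the first kind held 43.8% ± 2.97 in Chat+ and 44.2% ± 1.14 in Chat-. The 64 of the second kind held 56.2% ± 2.97 and 55.8% ± 1.14, and the groups overlapped.

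**Figure D5:**
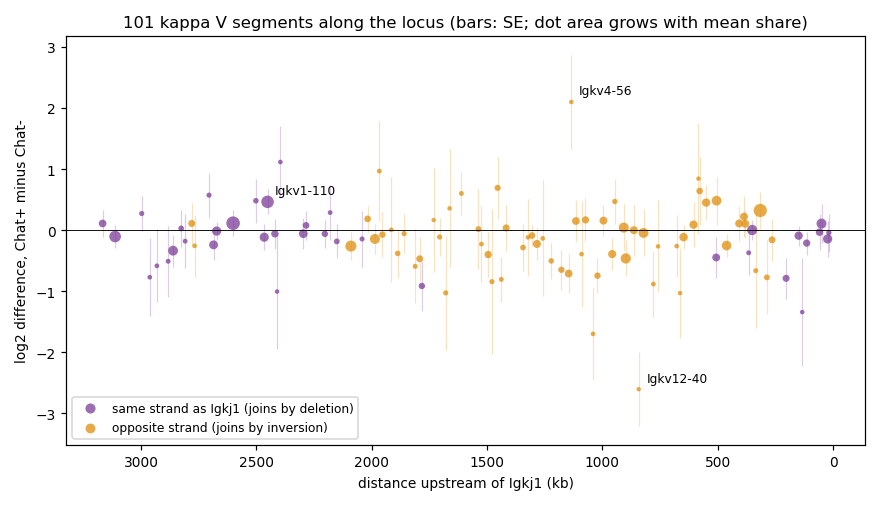
Log2 difference, Chat+ minus Chat- (y axis, limma estimate, bars SE), of the 101 segments against their distance upstream of Igkj1 (kb, x axis); colour gives the strand relative to Igkj1 and dot area grows with mean share. Estimates scatter around 0 along the whole locus, with Igkv12-40 lowest at -2.60, Igkv4-56 highest at 2.10 and Igkv1-110, one of the larger dots, at 0.46. Igkv12-40 and Igkv4-56 were at most at 1.25 and 1.33 CPM in any library.

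Other genes of light chain assembly were taken as lists. Of 13 kappa and lambda J, C and V genes, 8 had higher estimates in Chat+, where 57% of all genes did. Their median log2 difference was 0.06, against 0.04 over all genes, and 0 passed the adjusted limma test or had an unadjusted p under 0.05. Of the 17 measured of 20 genes of recombination and the surrogate light chain, 8 had higher estimates, the median was -0.02, 0 passed and 1 had an unadjusted p under 0.05, a share near the 4.51% of all genes. That gene was Rag1, a subunit of the V(D)J recombinase, at 1.05 ± 0.659 CPM in Chat+ and 4.74 ± 1.92 CPM in Chat- (limma adjusted p = 0.337). Of 15 factors that bind kappa promoters and enhancers, such as the octamer factor Pou2f2 and its coactivator Pou2af1, 2 had higher estimates, the median was -0.04, and 0 passed or had an unadjusted p under 0.05.

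The labelled cell type was checked against its markers. All 8 B cell markers were measured and summed to 10350 to 10912 CPM in Chat+ and 10556 to 11097 CPM in Chat-. Markers of other cells were lower: monocyte and macrophage markers (8 of 8 measured) summed to 38.9 to 208 CPM, neutrophil markers (7 of 7) to 21.8 to 128 CPM, and stromal and endothelial markers (8 of 8) to 277 to 458 CPM. Pecam1, at 253 ± 6.83 CPM in Chat+ and 253 ± 44.2 CPM in Chat-, made up most of the last sum. The highest sums of the macrophage and of the stromal markers were both in Chat- replicate 4. Of 7 T and NK cell markers, Cd4 was the one measured, at up to 1.27 CPM. Erythroid markers (6 of 6) summed to 449 to 1081 CPM. Immature B cell markers (6 of 10 measured) summed to 10.5 to 25.3 CPM in Chat+ and 21.3 to 32.2 CPM in Chat-.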

How the data were processed

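RNA was taken from Chat+ and Chat- mature B cells, 5 libraries each, with a strand-specific kit (per the labels' protocols). The submitters' processing notes name cutadapt 2.6, Salmon 0.14.2 and the build GRCm38.p6. The deposited values are log2 of CPM plus an offset of 0.1148, since all libraries share the lowest value -3.1228 and sum to 1000000 CPM without the offset. The tool that made them is not given in the sources used here.

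The offset was removed for CPM and shares. limma 3.58.1 (R 4.3.3; lmFit, eBayes with trend, group only, two-sided) was fitted to the deposited log2 values of all 14450 genes, with Benjamini-Hochberg adjustment over all of them, and checked on simulated data. Log2 differences understate the change of low genes, and their size there depends on the offset. Whole reads could not be recovered (35.4% to 48.7% of the values below 3 CPM came out whole, within 0.001 reads), and no count model was used. Intervals cover counting error only. Symbols were known for 14374 genes. Positions and transcripts are from GENCODE M21. Tables were made in Python 3.11.15 with pandas 2.3.3, scipy 1.17.1 and matplotlib 3.10.9.

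The segments named are the 10 highest in mean share, the 6 with the smallest limma p in each direction, those whose groups do not overlap, the 6 with the highest ratio of 1 library to the median of the other 9, and 3 by role. Further segments, the sums over related segments and the limit of 2 times were chosen after their values were seen. The members and lists were chosen with earlier results of these data known. Alternatives were log2(CPM + 1), TMM scaling, scaling to the Igkv total, library weights, filters, a replicate block and leaving out each library.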

Additional observations from a re-analysis of the deposited data

Results flagged for a closer look

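In groups of 5 libraries, the lowest or highest library was compared with the rest of its group by the gap to its neighbour divided by the group's range, with a critical value of 0.71. Of 118 group values tested over the named segments, the families and their sums, 17 had such a library, 8 in Chat+ and 9 in Chat-. Chance flags about 1 in 20 groups, but that rate cannot be set against this count: the named segments include those chosen because 1 library was high, and the families and sums repeat their segments.

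In Chat+, high shares stood apart for Igkv12-44 (6.79%) and Igkv4-70 (2.19%) in replicate 2 and for Igkv4-68 (2.75%) in replicate 1. The same held for Igkv4-74 (1.76%), Igkv8-24 (5.72%), Igkv12-41 (3.07%) and family Igkv8 (14.2%) in replicate 5, and for Igkv6-20 (3.34%) in replicate 4.

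In Chat-, 6 of the 9 were in replicate 4, the library with 11.9% mitochondrial CPM. Its shares of Igkv6-17 (1.80%, others 2.81% to 2.99%), Igkv8-28 (0.0567%) and Igkv8-21 (0.456%) were low. Its shares of Igkv5-43 (4.25%, others 2.70% to 2.93%), Igkv13-84 (1.12%) and family Igkv5 (9.86%, others 6.24% to 6.63%) were high. Igkv6-14 was high (1.74%) and Igkv4-77 low (0.0837%) in Chat- replicate 5. The sum of Igkv1-110 and Igkv1-117 was high in Chat- replicate 1 (9.32%, others 7.93% to 8.30%), still below each Chat+ library.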

How the results depend on the processing

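The count of segments passing the limma test was 0 under each of the 17 alternatives. The labels do not say whether the replicate numbers pair the libraries. Correlations of same-numbered deviations were -0.202 to 0.226, and 3 of 5 were highest with their own number. Neutrophil marker sums ranked the numbers alike in both groups. Erythroid marker sums nearly did, with replicates 1 and 5 highest, 4 between and 2 and 3 lowest in both groups. Macrophage marker sums did not, with Chat- replicate 4 far above the rest of its group. Pairing was thus not settled, and the main limma fit did not use the numbers. With a replicate block, 0 segments passed and 8 had an unadjusted p under 0.05. That unadjusted count was 3 to 10 with 1 library left out, lowest without Chat+ replicate 2 (3) and Chat- replicate 5 (5). The adjusted p of Igkv12-40 ran from 0.0704 to 0.999978 over the alternatives, and that of Igkv1-110 from 0.313 to 0.999978. Segments whose groups did not overlap in CPM numbered 0 among those with a mean of at least 1 CPM, 3 scaled to the Igkv total, and 1 to 3 with 1 library left out: 3 without Chat+ replicate 1, 3 or 5 and 2 without Chat+ replicate 4, Chat- replicate 3 or Chat- replicate 4.

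The estimate of Igkv14-126 changed sign with TMM scaling (-0.012), library weights (-0.075) and 3 of the left-out libraries (-0.18 to 0.19 over all of them), and that of Igkv4-91 with 3 left-out libraries (-0.23 to 0.18). These role segments have no firm direction. Cases of 1 library at least 2 times the median of the other 9 numbered 7 to 11 in Chat+ (7 without replicate 2 or 5) and 1 to 4 in Chat- (1 without replicate 5) with 1 library left out, 25 and 19 at 1.5 times, and 4 and 1 at 3 times. These alternatives and the removal of the 14 segments were chosen after seeing the data. Leaving out segments sharing over 50% of words removes Igkv1-110, Igkv1-117, Igkv1-135 and Igkv1-133. Their mean shares were 4.24%, 5.06%, 3.56% and 0.264%, where the whole family Igkv1 held 13.9%. Little of the family thus remained, and its difference was then 0.08 percentage points of share. That value cannot show which segment sets the family's difference. The difference in summed Igkv CPM, -29.7 over all libraries, ran from -216 to 161 with 1 library left out. The cause of these changes was not tested. Depth limits the low segments most: a share of 1% has a 95% Wilson interval of 0.897% to 1.12% at the fewest Igkv reads, and lower shares are less precise in proportion.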
